A study of Vitis amurensis with 6 samples.

Results

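Within the 3 libraries of grape callus that overexpress VaWRKY12, replicate 3 stood apart from replicates 1 and 2 in 276 genes, which are the subject here. A gene was a member when its mean level over the 3 VaWRKY12 libraries was at least 5 CPM (the reads of a gene per 1000000 reads in its library's column) and its CPM in replicate 3 was at least 2 times, or at most 0.5 times, that in each of the other libraries. Of all 16645 genes, 13481 reached the minimum level, and of these 40 formed the higher set and 236 the lower set. The callus, a mass of unorganised plant cells kept in culture, came from Vitis amurensis, the Amur grape. The labels give one group the genotype VaWRKY12 overexpression, and call the other EV, with the genotype label Envelope (3 libraries each). All 6 libraries share the rest of the treatment in the labels: callus was raised from transformed petiole pieces, grown in darkness at 25 °C on B5 medium with 20 mg/L kanamycin to select transgenic cells, and chilled at 4 °C for 24 hours once it had spent 15 days on fresh medium. Neither the promoter driving VaWRKY12 nor the number of callus lines behind each group is stated in the labels, so p-values measure only the spread among these 6 libraries, and that spread may be technical.

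WRKY proteins are plant transcription factors named after a conserved run of amino acids in their DNA-binding domain. They recognise a short promoter element called the W-box and are best known for their part in the responses of plants to pathogens and to stresses such as drought, salt and cold. Callus overexpressing such a factor is commonly compared with callus that lacks the transgene to list genes that lie downstream of it, and genes that differ between libraries of the same genotype enter that comparison as spread. Gene identifiers come without names or descriptions in the files, so no gene function is given, and the level of VaWRKY12 itself could not be read as a check of the labels.

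The libraries held 8795632 to 14966502 reads on the genes of the table, with 9139429 in VaWRKY12 replicate 3, so that 5 CPM stood for 45.7 to 74.8 reads in the VaWRKY12 libraries. The same rule, applied to each library against the other libraries of its own group, set apart 276 genes in VaWRKY12 replicate 3 (2.05% of the genes at the minimum level), 62 in VaWRKY12 replicate 1 and 36 in VaWRKY12 replicate 2. Within EV it set apart 112 genes in replicate 2, 43 in replicate 1 and 15 in replicate 3. The lower set of VaWRKY12 replicate 3 accounts for its lead, since its 40 higher genes lie between the 49 of VaWRKY12 replicate 1 and the 23 of VaWRKY12 replicate 2, and its 236 lower genes compare with 13 in each of them. Every gene listed reached 1 CPM in 2 or more libraries, so a gene read in VaWRKY12 replicate 3 alone would not be among them. A gene read in VaWRKY12 replicate 1 or 2 alone would be missing too, although it could meet the rule for the lower set. That limit therefore touches the size of both sets, and the number of genes missing is not known.

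**Figure D1:**
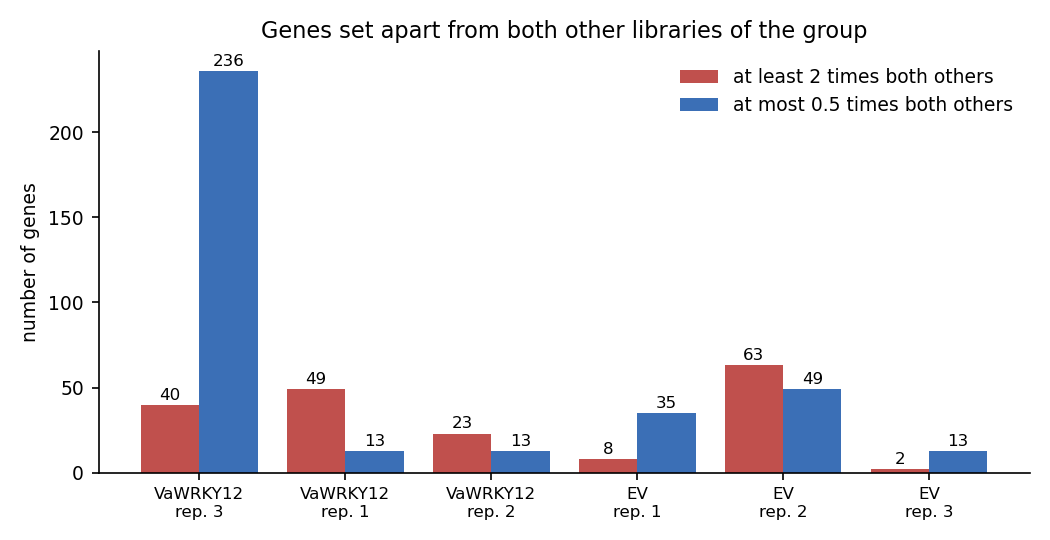
Number of genes at least 2 times (red) or at most 0.5 times (blue) the CPM in both other libraries of the same group, for each of the 6 libraries, among genes with a group mean of at least 5 CPM. The 236 lower genes of VaWRKY12 replicate 3 exceed every other bar, the next of which are 63 and 49.

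Members came mostly from the lower levels of expression. Of the genes with a mean of 5 to 10 CPM over VaWRKY12, 93 of 1824 were in the lower set (5.10%) and 16 in the higher set (0.877%). At 100 CPM or more, 13 of 2720 were in the lower set (0.478%) and 6 in the higher set (0.221%). The median member of the lower set rested on 452.5 reads over the 3 VaWRKY12 libraries, and 23 of the 236 rested on fewer than 200. The median higher member rested on 456.5 reads, with 4 of 40 below 200. No member had 0 reads in VaWRKY12 replicate 3, where the fewest were 4 in the lower set and 81 in the higher set.

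Members were chosen by the CPM of the 3 VaWRKY12 libraries, and these values are therefore a description. For the higher set the median level was 27.1 CPM in VaWRKY12 replicate 3, 8.25 and 8.64 CPM in VaWRKY12 replicates 1 and 2, and 5.39, 4.32 and 6.08 CPM in EV replicates 1, 2 and 3. In the lower set it was 5.85 CPM in VaWRKY12 replicate 3, 16.5 and 15.4 CPM in VaWRKY12 replicates 1 and 2, and 12.2, 19.3 and 14.2 CPM in EV replicates 1, 2 and 3. The EV libraries thus lay below all 3 VaWRKY12 libraries in the medians of the higher set, and alongside VaWRKY12 replicates 1 and 2 in those of the lower set. In sum, the 236 lower members held 4072 CPM in VaWRKY12 replicate 3, 11304 and 11601 CPM in VaWRKY12 replicates 1 and 2, and 9552, 13292 and 8907 CPM in EV replicates 1, 2 and 3. At the edge of the rule, the higher member with the smallest ratio to the nearer library stood at 2.02 (356 CPM in VaWRKY12 replicate 3, against 141 and 177 CPM in replicates 1 and 2) and the gene just outside at 1.99 (9.19 CPM against 4.01 and 4.61 CPM). For the lower set the member just inside had 4.92 CPM in VaWRKY12 replicate 3, against 11.6 and 9.87 CPM, and the gene just outside had 8.75 CPM, against 18.7 and 17.5 CPM. Many genes lay near the edge: 53 lower members had a ratio from 2 to 2.2, while 138 genes with a ratio from 1.8 to 2 were left out, and for the higher set these counts were 12 and 24.

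**Figure D2:**
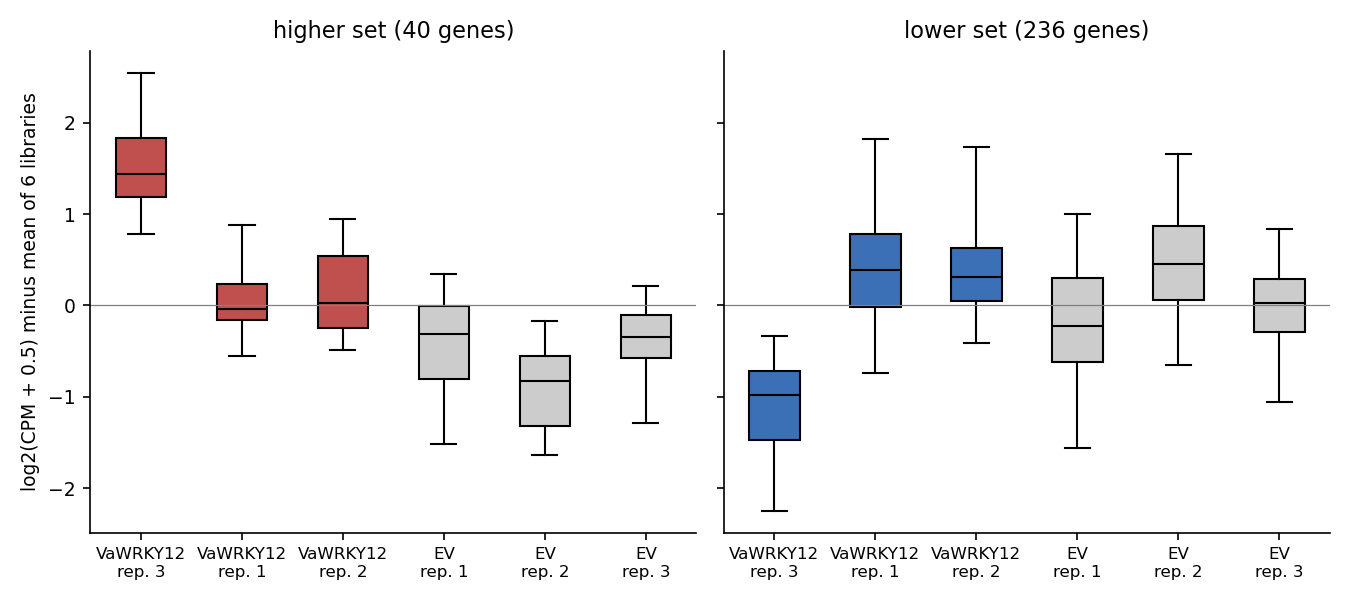
Level of the members in each library as log2(CPM + 0.5) minus the gene's mean over the 6 libraries, for the higher set (left, 40 genes) and the lower set (right, 236 genes). Boxes span the quartiles with the median as a line, whiskers run from percentile 5 to 95, VaWRKY12 libraries are coloured and EV libraries grey. Besides VaWRKY12 replicate 3, EV replicate 2 departs from its group in the opposite direction, with medians of -0.83 in the higher set and 0.46 in the lower set. In the lower set the median of EV replicate 1 is -0.22.

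Log2 fold changes and p-values of members against EV come from the fit over all genes, and since the VaWRKY12 values chose the members they are given as a description. Among the higher members, the largest ratio was that of GSVIVT01032007001, a minus-strand gene with 15 exons on chromosome 13 (23604143 to 23631345). It had 104.67 reads in VaWRKY12 replicate 3, 18 and 24 in VaWRKY12 replicates 1 and 2, and 0, 1 and 1 in EV replicates 1, 2 and 3. The level was 11.5 CPM in VaWRKY12 replicate 3, against 1.20 and 2.57 CPM in replicates 1 and 2, a ratio of 4.45 to the nearer of them. All 3 VaWRKY12 libraries lay above all EV libraries, so the deviation extended a difference that replicates 1 and 2 already showed. Summed reads scaled to library totals were 65.4 times higher in VaWRKY12 than in EV (95% exact counting interval 17.8 to 545, edgeR adjusted p = 0.0241), a ratio that rests on 2 EV reads. The gene reached the minimum level, with a mean of 5.08 CPM in VaWRKY12, through replicate 3, so the ratio and p rest on the values that chose it. Leaving out EV replicate 1, 2 or 3 gave ratios of 42.7, 83.9 and 92.1, and the edgeR adjusted p was 0.0719 to 0.0889 without any 1 EV library. For VaWRKY12 replicates 1 and 2 alone the ratio to EV was 25.7 (6.69 to 219).

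The most abundant higher member was GSVIVT01035059001, a minus-strand gene with 2 exons on chromosome 5 (1242624 to 1243231). It had 437 CPM in VaWRKY12 replicate 3, 212 and 203 CPM in VaWRKY12 replicates 1 and 2, and 301, 125 and 252 CPM in EV replicates 1, 2 and 3. VaWRKY12 replicates 1 and 2 fell inside the EV range, and the genotype difference did not pass the test (log2 fold change 0.32, SE 0.386, edgeR adjusted p = 0.666). Without VaWRKY12 replicate 3 the log2 fold change was -0.17 (edgeR adjusted p = 0.795), so the sign of this gene's difference depended on that library. The gene was the first of 3 neighbouring higher members between 1242624 and 1251791 on chromosome 5, each with a coding length of 480 bases in 2 exons and with fractions of reads. Together they held 937 CPM in VaWRKY12 replicate 3, 458 and 405 CPM in VaWRKY12 replicates 1 and 2, and 639, 313 and 536 CPM in EV replicates 1, 2 and 3. Genes with fractions of reads may share reads with other gene models, so the 3 may not be separate observations.

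Among the lower members, the largest ratio was that of GSVIVT01035145001, a minus-strand gene with 18 exons on chromosome 5 (1845533 to 1854311). It had 2.19 CPM in VaWRKY12 replicate 3, 35.0 and 31.5 CPM in VaWRKY12 replicates 1 and 2, and 1.17, 2.25 and 2.50 CPM in EV replicates 1, 2 and 3. VaWRKY12 replicate 3 thus lay within the EV range, while replicates 1 and 2 averaged 16.9 times the EV mean. The nearer of them was 14.4 times VaWRKY12 replicate 3. The genotype difference passed the test (log2 fold change 3.52, SE 0.860, edgeR adjusted p = 0.0352). It did not pass without VaWRKY12 replicate 1 or 2 (edgeR adjusted p = 0.0844 and 0.0850) or without any 1 EV library (0.0967 to 0.124).

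The most abundant lower member was GSVIVT01001299001, a minus-strand gene with 2 exons on chromosome 2 (5141876 to 5142274). It had 942 CPM in VaWRKY12 replicate 3, 2060.1 and 1913 CPM in VaWRKY12 replicates 1 and 2, and 591, 990.3 and 610.4 CPM in EV replicates 1, 2 and 3. VaWRKY12 replicate 3 was below EV replicate 2, and replicates 1 and 2 were above all EV libraries. With all 6 libraries the log2 fold change was 1.14 (SE 0.300, edgeR adjusted p = 0.0455), and without VaWRKY12 replicate 3 it was 1.40 (edgeR adjusted p = 0.00705). The call did not hold without EV replicate 1 or 3 (edgeR adjusted p = 0.149 each) or without VaWRKY12 replicate 1 or 2 (0.112 and 0.126).

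**Figure D3:**
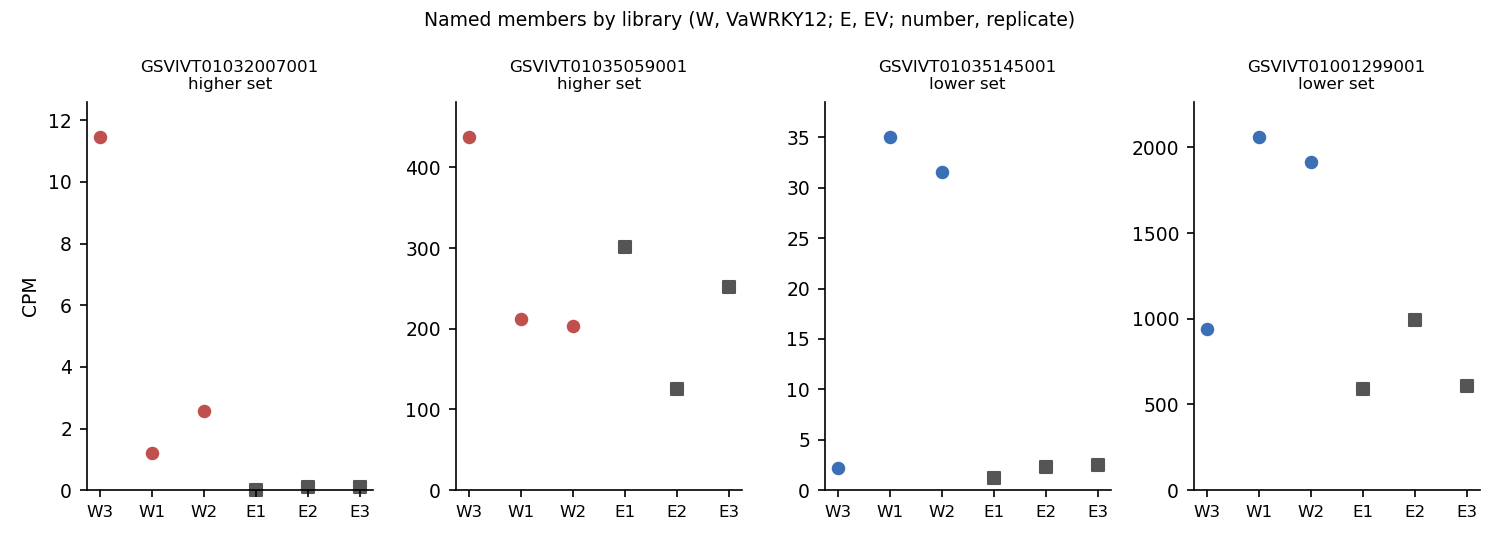
CPM of the 4 named members in every library, on linear axes from 0 (W, VaWRKY12, coloured circles; E, EV, grey squares; the number is the replicate). In GSVIVT01035145001 VaWRKY12 replicate 3 sits at 2.19 CPM among the EV libraries, while in GSVIVT01032007001 it lies at 11.5 CPM, above every other library.

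The last gene closed a stretch of 5 neighbouring lower members on chromosome 2, from 5105826 to 5142274. Neighbours are taken among the genes at the minimum level. Together the 5 genes held 1451 CPM in VaWRKY12 replicate 3, 3357 and 3472 CPM in VaWRKY12 replicates 1 and 2, and 1247, 2180 and 1308 CPM in EV replicates 1, 2 and 3. VaWRKY12 replicate 3 lay inside the EV range and replicates 1 and 2 above it. The largest log2 fold change against EV within the stretch was that of a minus-strand gene of 4 exons from 5134356 to 5135658, singled out after its values were seen. It had 40.9 CPM in VaWRKY12 replicate 3, 147 and 186 CPM in VaWRKY12 replicates 1 and 2, and 23.2, 42.2 and 23.8 CPM in EV replicates 1, 2 and 3. Its log2 fold change was 2.04 with all 6 libraries (edgeR adjusted p = 0.0334). The log2 fold change was positive for all 5 genes. It passed the test for 2 of them with all 6 libraries, this gene and GSVIVT01001299001 (5.76% of all tested genes were called higher). Without VaWRKY12 replicate 3, 4 of the 5 were called higher (5.88% of all tested genes). Members were chosen for the distance of replicate 3, so leaving it out lowers their spread by construction, and these counts are a description. Fractions of reads occurred in 3 of the 5 genes, so the 5 may not all be separate observations.

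Where EV lay differed between the sets. For 29 of the 40 higher members the EV mean was below both VaWRKY12 replicate 1 and replicate 2, for 3 it lay between those libraries, and for 8 it lay above both but below replicate 3. VaWRKY12 replicate 3 was above all 3 EV libraries for 40 of 40 higher members, against 38.6% of the genes at the minimum level and 68.8% of those whose level in replicate 3 was above the mean of replicates 1 and 2. For the lower members the EV mean was above both VaWRKY12 replicates 1 and 2 for 79 of 236, between them for 19, and below both for 138. Among these 138, it was still above replicate 3 for 112 and at or below it for 26. VaWRKY12 replicate 3 was below all 3 EV libraries for 182 of the 236 lower members (77.1%, against 37.0% of the genes at the minimum level and 58.4% of those with replicate 3 below the mean of replicates 1 and 2). It lay within the EV range for 42 and above all EV libraries for 12.

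The deviation of VaWRKY12 replicate 3 extends the genotype difference where it points the same way as the difference between the mean of VaWRKY12 replicates 1 and 2 and the EV mean, and opposes it where it points the other way. It extended that difference for 31 of the 40 higher members and opposed it for 9 (22.5%). Among the 5987 genes at the minimum level with replicate 3 above replicates 1 and 2 the opposing share was 42.1%. The deviation opposed the difference for 149 of the 236 lower members (63.1%) and extended it for 87, close to the opposing share of 58.8% among the 7494 genes with replicate 3 below. Both quantities contain VaWRKY12 replicates 1 and 2, which were also used to choose the members, so these shares are descriptions. The members share the same libraries and are not independent replicates, so no interval is given. When the deviation was taken from one of these libraries and the difference from the other, the opposing share was 25% or 22.5% in the higher set and 62.3% or 62.7% in the lower set. The share of the lower set also moved with the EV libraries, from 54.2% without EV replicate 1 to 71.6% without EV replicate 2. In the higher set it was 45.5% among the 11 members with a mean of at least 50 CPM. The opposing members there include the 3 neighbours on chromosome 5, which may not be separate observations.

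**Figure D4:**
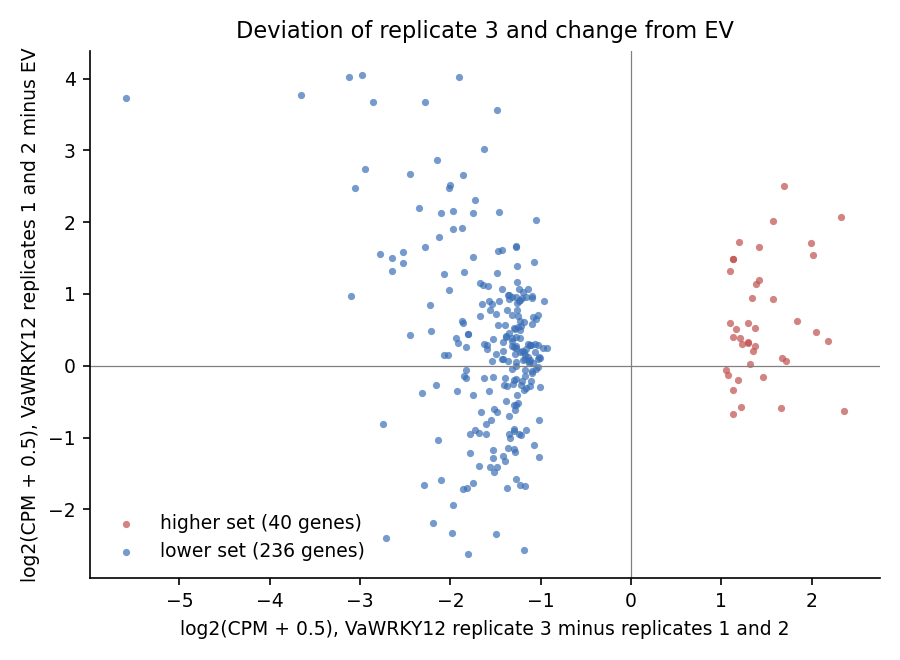
Deviation of VaWRKY12 replicate 3 from the mean of replicates 1 and 2 (x axis) against the difference between that mean and the EV mean (y axis), both as differences of log2(CPM + 0.5), with 1 point per member. Lower members lie both above and below 0 on the left side, with 149 opposing the difference from EV and 87 extending it, while 31 of the 40 higher members lie in the upper right, where the deviation extends it.

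By the size of the difference from EV, the lower set split into 3 classes. Shares of all genes given for these classes are not matched for level, and members came mostly from the lower levels, so they are a description. In 58 members VaWRKY12 replicates 1 and 2 averaged at least 2 times EV (24.6%, against 3.16% of the genes at the minimum level). The median level of these 58 was 4.49 CPM in VaWRKY12 replicate 3, 15.3 and 14.7 CPM in VaWRKY12 replicates 1 and 2, and 4.69, 5.64 and 5.12 CPM in EV replicates 1, 2 and 3. For 43 of the 58, replicate 3 was within 2 times the EV mean, for 9 it was still at least 2 times EV, and for 6 it was at most 0.5 times EV. The most abundant of the 9, chosen after its values were seen, was a plus-strand gene of 8 exons on chromosome 15 from 18819140 to 18821441. It had 37.4 CPM in VaWRKY12 replicate 3, 203 and 164 CPM in VaWRKY12 replicates 1 and 2, and 10.01, 12.2 and 19.4 CPM in EV replicates 1, 2 and 3. All 3 VaWRKY12 libraries were above EV, and the gene rose in the test (log2 fold change 3.26, SE 0.567, edgeR adjusted p = 0.00981).

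In the largest class of the lower set, 146 members, VaWRKY12 replicates 1 and 2 averaged within 2 times EV, and for 99 of them replicate 3 was at most 0.5 times the EV mean. The median level of the 146 was 6.32 CPM in VaWRKY12 replicate 3, 16.97 and 15.2 CPM in VaWRKY12 replicates 1 and 2, and 12.2, 19.4 and 14.5 CPM in EV replicates 1, 2 and 3. In these medians replicate 3 was the lowest of all 6 libraries. In the remaining 32 members replicates 1 and 2 averaged at most 0.5 times EV (13.6%, against 1.36% of the genes at the minimum level), and replicate 3 lay lower still. Their median level was 6.02 CPM in VaWRKY12 replicate 3, 16.1 and 19.9 CPM in VaWRKY12 replicates 1 and 2, and 36.8, 67.8 and 37.4 CPM in EV replicates 1, 2 and 3. The most abundant of the 32, likewise chosen after its values were seen, was a minus-strand gene of 4 exons on chromosome 3 from 8895286 to 8912074. It had 89.2 CPM in VaWRKY12 replicate 3, 199 and 206 CPM in VaWRKY12 replicates 1 and 2, and 1573, 1075 and 958 CPM in EV replicates 1, 2 and 3. The groups did not overlap, and the gene fell in VaWRKY12 (log2 fold change -2.90, SE 0.325, edgeR adjusted p = 0.00248), with -2.61 without replicate 3 (edgeR adjusted p = 0.00165).

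In the higher set, VaWRKY12 replicates 1 and 2 averaged at least 2 times EV for 13 members (32.5%, against 3.16% of the genes at the minimum level), within 2 times EV for 27, and at most 0.5 times EV for 0. The median level of the 13 was 19.3 CPM in VaWRKY12 replicate 3, 5.88 and 6.54 CPM in VaWRKY12 replicates 1 and 2, and 2.04, 1.31 and 2.84 CPM in EV replicates 1, 2 and 3. The minimum level was set on the VaWRKY12 mean, which replicate 3 raises here. The share of all genes is not matched for level, so the contrast is a description. For 22 of the 27, replicate 3 was at least 2 times the EV mean. The most abundant of the 13 was a plus-strand gene of 4 exons on chromosome 16 from 17352540 to 17355619, chosen after its values were seen. It had 134 CPM in VaWRKY12 replicate 3, 60.9 and 39.0 CPM in VaWRKY12 replicates 1 and 2, and 29.5, 11.8 and 23.4 CPM in EV replicates 1, 2 and 3. All VaWRKY12 libraries were above all EV libraries (log2 fold change 1.84, SE 0.487, edgeR adjusted p = 0.0459), and without replicate 3 the edgeR adjusted p was 0.0641. The most abundant of the 22 was a plus-strand gene of 4 exons on chromosome 15 from 16617768 to 16619071, with 432 CPM in VaWRKY12 replicate 3, 152 and 187 CPM in VaWRKY12 replicates 1 and 2, and 169, 94.1 and 179 CPM in EV replicates 1, 2 and 3. Without replicate 3 its groups overlapped, and its genotype difference did not pass the test with or without that library (edgeR adjusted p = 0.275 and 0.754).

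All 276 members were among the 16317 genes tested between VaWRKY12 and EV with edgeR's quasi-likelihood test. With all 6 libraries, 12 of the 40 higher members were called higher in VaWRKY12 and 0 lower, where 5.76% of all tested genes were called higher and 6.16% lower (Benjamini-Hochberg adjusted p under 0.05). DESeq2 called 18 higher and 0 lower (7.19% of all tested genes called higher), and limma-voom 5 higher and 0 lower (5.27%). Of the 40, 22 had an unadjusted p under 0.05 in edgeR, in either direction, against 4257 of all 16317 tested genes. The median log2 fold change of the higher set was 1.05, against 0.01 over all tested genes. Of the 236 lower members, 17 were called higher and 33 lower, with a median log2 fold change of -0.09. The VaWRKY12 libraries chose the members, so nothing is read from these counts beyond their values. All 3 VaWRKY12 libraries were above all 3 EV libraries for 21 of the 40 higher members (52.5%, against 19.4% of the genes at the minimum level). Among genes with replicate 3 above the mean of replicates 1 and 2 the share was 27.4%. All 3 were below all EV libraries for 54 of the 236 lower members (22.9%, against 14.3%). Among genes with replicate 3 below that mean the share was 18.4%. Taking VaWRKY12 replicates 1 and 2 alone, both were above all EV libraries for 21 higher and 93 lower members (27.6% of the genes at the minimum level), and both below for 4 higher and 54 lower members (17.9%).

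Since members were chosen for the distance of VaWRKY12 replicate 3 from replicates 1 and 2, leaving it out lowers their spread by construction, and the counts without it are a description. Without it, 56 lower members were called higher in VaWRKY12 than in EV, against a background of 5.88%, and they included all 17 of those called with 6 libraries. Lower members called lower numbered 39 (background 6.06%), of which 32 were shared with the 33. In the higher set 11 members were called higher, 10 of them shared with the 12, and 1 was called lower. The median standard error of the log2 fold change was 0.386 in the lower set with all 6 libraries and 0.257 without replicate 3, against 0.148 and 0.143 over all tested genes. The calls also moved with single libraries of EV. Leaving out EV replicate 1, 2 or 3 gave 1, 1 and 6 members of the higher set called higher, in place of 12, while the share of all tested genes called higher was 2.78%, 2.86% and 3.32% in these fits. In the lower set the number called higher was 4, 8 and 4, in place of 17 (1.69%, 3.39% and 1.69% of the members, beside these shares of all tested genes). The number called lower was 13, 10 and 23, in place of 33 (5.51%, 4.24% and 9.75% of the members, against 3.57%, 3.19% and 4.18% of all tested genes). Without VaWRKY12 replicate 1 the lower set had 7 called higher (2.97%, against 4.00% of all tested genes) and 17 called lower (7.20%, against 4.04%). Without VaWRKY12 replicate 2 it had 7 called higher (2.97%, against 3.49%) and 34 called lower (14.4%, against 3.88%). At the same threshold of 0.05 on its false discovery rate, the authors' deposited table has 9 members of the higher set as higher and 0 as lower, and 10 members of the lower set as higher and 27 as lower. Of all 16645 genes, the authors' deposited table has 5.67% as higher and 5.89% as lower, against 22.5% of the higher set as higher, and 4.24% of the lower set as higher and 11.4% as lower.

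The rule did not use the EV libraries, and the same genes differed among them as well. The median SD of log2(CPM + 0.5) over the 3 EV libraries was 0.43 in the lower set and 0.41 in the higher set, against 0.13 over the genes at the minimum level. In classes of the EV mean itself, the median SD of the lower set was 0.41 below 5 CPM (37 members), 0.38 from 5 to 10 CPM (50), 0.46 from 10 to 20 CPM (51), 0.46 from 20 to 50 CPM (51) and 0.39 above (47). All genes at the minimum level in these classes had 0.28, 0.21, 0.16, 0.12 and 0.10. In the higher set 20 of the 40 members had an EV mean below 5 CPM, with a median SD of 0.41. The highest EV library was at least 2 times the lowest for 89 of the 236 lower members (37.7%) and 15 of the 40 higher members (37.5%), against 3.20% of the genes at the minimum level. That last share is not matched for level. With an EV mean below 5 CPM the shares were 43.2% of lower and 55% of higher members, against 25.5% of all genes. From 5 to 10 CPM they were 34% and 0% (3 higher members), against 6.88%. In each class above, both sets exceeded the share of all genes.

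These EV differences had a direction. EV replicate 2 was the highest EV library for 178 of the 236 lower members (75.4%, against 36.3% of the genes at the minimum level), and lay above the mean of EV replicates 1 and 3 by a median of 0.55 on the log2 scale, against 0.01. EV replicate 1 was the lowest EV library for 144 of these members (61.0%, against 39.6%) and the highest for 38. Its median difference from the mean of EV replicates 2 and 3 was -0.43, against -0.01. EV replicate 2 was the lowest EV library for 30 of the 40 higher members (75%, against 33.5%), with a median difference of -0.53. Genes that were low in VaWRKY12 replicate 3 were thus mostly high in EV replicate 2, and genes that were high in VaWRKY12 replicate 3 mostly low there. This was seen in each class of the lower set: EV replicate 2 was highest for 38 of the 58 members with VaWRKY12 replicates 1 and 2 at least 2 times EV (65.5%), for 114 of the 146 within 2 times EV (78.1%), and for 26 of the 32 at most 0.5 times EV (81.2%). Among all genes at the minimum level in these classes the shares were 32.2%, 36.1% and 61.7%. Each of these deviations is that of 1 library, so no test of the relation was made.

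The overlap of the sets was in the same direction. Of the 63 genes that the rule set apart as higher in EV replicate 2, 25 were lower members of VaWRKY12 replicate 3 (39.7% of the 63 and 10.6% of the 236) and 0 were higher members. Of the 49 genes set apart as lower in EV replicate 2, 3 were higher members (6.12% of the 49 and 7.50% of the 40) and 1 was a lower member (2.04%). EV replicate 1 shared 10 of its 35 lower genes with the lower set (28.6% of the 35). Beside these shares, 1.75% of the genes at the minimum level were lower members and 0.297% higher members. The 0 of 63 and the 1 of 49 lie near those shares. The most abundant of the 25 shared genes, chosen after its values were seen, was a minus-strand gene of 2 exons on chromosome 5 from 20086451 to 20089205. It had 192 CPM in VaWRKY12 replicate 3, 589 and 799 CPM in VaWRKY12 replicates 1 and 2, 469 CPM in EV replicate 2, and 141 and 234 CPM in EV replicates 1 and 3. VaWRKY12 replicates 1 and 2 were above all EV libraries, replicate 3 was within the EV range, and the genotype difference did not pass the test (log2 fold change 0.87, SE 0.534, edgeR adjusted p = 0.357). Another, a minus-strand gene of 2 exons on chromosome 18 from 5617417 to 5618368, had 41.0 CPM in VaWRKY12 replicate 3, 254 and 315 CPM in VaWRKY12 replicates 1 and 2, 168 CPM in EV replicate 2, and 47.2 and 74.6 CPM in EV replicates 1 and 3.

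**Figure D5:**
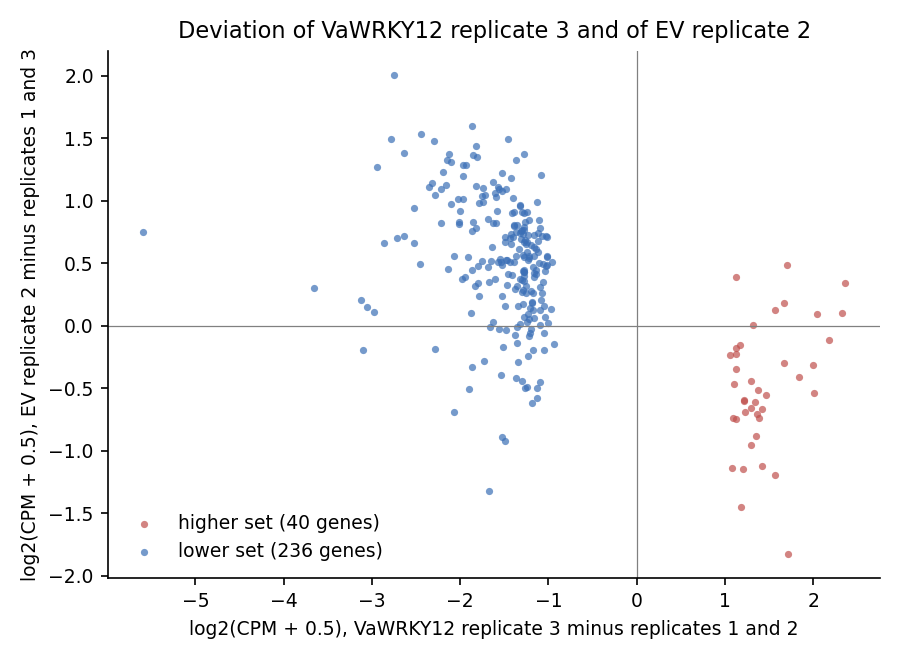
Deviation of VaWRKY12 replicate 3 from VaWRKY12 replicates 1 and 2 (x axis) against deviation of EV replicate 2 from EV replicates 1 and 3 (y axis), both as differences of log2(CPM + 0.5), with 1 point per member. Most lower members lie above 0 on the y axis (median 0.55) and most higher members below it (median -0.53).

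The opposed deviations of these libraries extended beyond the members. Across the 13481 genes at the minimum level, the deviation of VaWRKY12 replicate 3 correlated at -0.44 with that of EV replicate 2, and at 0.29 and 0.20 with those of EV replicates 1 and 3 (Pearson's r across genes, which are not independent replicates, and whose deviations share the libraries' depth and composition). The EV deviations of a gene cancel out when added, so the values for EV replicates 1 and 3 are not relations separate from that of EV replicate 2. The correlation with EV replicate 2 was -0.26 within the lower set and 0.34 within the higher set. Coding length moved with both deviations. With the genes at the minimum level in 5 equal classes from short to long, the median deviation of VaWRKY12 replicate 3 was 0.12, 0.04, -0.02, -0.10 and -0.21 on the log2 scale, and that of EV replicate 2 was -0.05, -0.02, 0.01, 0.03 and 0.08. The part of length in the members' own deviations was not tested. VaWRKY12 replicate 2 over replicate 1 gave medians from -0.01 to -0.03 over the same classes. EV replicate 2 was the highest EV library for 73.0% to 79.2% of the lower members in each length class, where it was for 25.9% to 47.5% of all genes in these classes.

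The median coding length was 991.5 bases in the higher set, against 903 among the genes at the minimum level with VaWRKY12 replicate 3 above replicates 1 and 2. It was 1243.5 bases in the lower set, against 1393.5 among those with replicate 3 below, and 1137 over all genes at that level. The median number of exons was 4 in the higher set and 5 in the lower set, against 6 over all genes at the minimum level. From the first to the last exon the median span was 2242 bases in the higher set, against 4287 among the genes with replicate 3 above, and 2948 bases in the lower set, against 5352.5 among those with replicate 3 below. It was 4781 bases over all genes at the minimum level. The median longest intron was 597.5 bases in the higher set and 670 in the lower set, against 1646 over all genes at that level. Fractions of reads occurred in 15 of the 40 higher (37.5%) and 69 of the 236 lower members (29.2%), against 42.6% of the genes at the minimum level. Sequences named Un, or with random in their name, held 2 higher and 16 lower members (5% and 6.78%, against 7.41%).

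Along the genome, lower members were most numerous on chromosome 13, which held 25 of its 697 genes at the minimum level in the lower set (3.59%, against 1.75% over the genome). Chromosome 18 held 20 (2.06%), chromosome 7 held 17 (2.09%) and chromosome 10 held 11 of 400 (2.75%), while chromosome 4 held 7 of 737 (0.9498%). Among lower members, 15 of the 236 lay next to another lower member (6.36%, against 3.43% of all genes at the minimum level), in 5 pairs and the stretch of 5 genes on chromosome 2. Among higher members the 3 neighbours on chromosome 5 were the only ones (7.50%, against 0.579%). Of the 5 pairs, that on chromosome 6 from 5072003 to 5091733 had the largest ratio, with 42.1 CPM in VaWRKY12 replicate 3, 198 and 153 CPM in VaWRKY12 replicates 1 and 2, and 192, 252 and 173 CPM in EV replicates 1, 2 and 3. VaWRKY12 replicate 3 was the low library among all 6 there. The pair on the sequence named 4_random from 52928 to 56656 had 26.9 CPM in VaWRKY12 replicate 3, 65.5 and 61.8 CPM in VaWRKY12 replicates 1 and 2, and 200.1, 219 and 193 CPM in EV replicates 1, 2 and 3. There the groups did not overlap, and replicate 3 extended a difference already present in replicates 1 and 2.

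A few members were set apart by more than replicate 3. In 12 lower and 2 higher members VaWRKY12 replicates 1 and 2 themselves differed by at least 2 times, with replicate 2 the higher in 7 of the 12 and both of the 2. The most abundant of the 12, a plus-strand gene of 2 exons on chromosome 5 from 1288628 to 1289093, had 4 reads in VaWRKY12 replicate 3, 19 and 820 in VaWRKY12 replicates 1 and 2, and 22, 44 and 21 in EV replicates 1, 2 and 3. Nearly all of its level came from VaWRKY12 replicate 2, and its genotype difference did not pass the test (edgeR adjusted p = 0.228).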

How the data were processed

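RNA from cold-treated callus was sequenced in 3 VaWRKY12 and 3 EV libraries. The submitters' processing notes list Trimmomatic, HISAT2 2.0.5 and edgeR but assign them no role, and the counter, genome build and annotation are not stated in the labels or the file. The deposited table gives, per the file headers, reads per gene and library that were not normalised, taken as an estimated count because 6623 genes (39.8%) hold fractions of a read in any library (tolerance 1e-06). Their origin is not stated. The authors' RPKM values, their log2 fold changes and their F score were not used; the p-value and false discovery rate of the authors' table were used to count its calls. Coding length is the sum of the listed exons, which holds for all 16645 genes. Strand use in counting is not stated, so a gene and an overlapping antisense gene may share reads.

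CPM was computed from the column sums. For log values 0.5 was added to the CPM. Reads were rounded and tested with edgeR 4.0.16 (R 4.3.3) after filterByExpr at a minimum count of 10 and TMM scaling (factors 0.979 to 1.03), two-sided, with Benjamini-Hochberg adjustment over the 16317 genes kept. The fit was tested on simulated data. DESeq2 1.42.0 and limma 3.58.1 (voom), library totals alone, no filter, whole-read genes, a replicate block and leaving out each library were tried, as were other limits of the rule. Counting intervals cover counting error only. Samples were grouped by their titles. Named genes are the member with the largest ratio to the nearer library and the most abundant member of each set. The members, lists and tests were chosen with earlier results of these data known. Gene lists fixed by function could not be matched to identifiers and were not used. Coordinates are those of the deposited table.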

Additional observations from a re-analysis of the deposited data

How the results depend on the processing

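The size of both sets follows the limits of the rule, by construction. The higher and lower set held 24 and 143 genes at a minimum mean of 10 CPM, 11 and 34 at 50 CPM, 187 and 827 at a fold of 1.5, and 10 and 60 at a fold of 3. With whole-read genes 25 higher members were left, from fewer genes. Compared with only 1 other VaWRKY12 library, the higher set held 89 to 95 genes and the lower set 291 to 466. The opposing share was 45.5% in the higher and 70.6% in the lower set at 50 CPM, 12% in the higher set with whole-read genes, and 54.2% to 71.6% in the lower set without single EV libraries. EV replicate 2 was the lowest EV library for 100% of the higher and the highest for 82.4% of the lower members at 50 CPM, in alternatives added after seeing the data. The cause of these shifts was not tested.

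With 1 library left out, 457 to 975 genes of the whole table were called higher and 524 to 1005 lower. In the higher set 1 to 13 members were called higher and 0 to 1 lower, and in the lower set 4 to 56 were called higher and 10 to 39 lower. DESeq2 called 26 members of the lower set higher (11%, against 7.19% of all tested genes), and limma-voom called 5 of the higher and 5 of the lower set higher (12.5% and 2.12%, against 5.27%). Whole-read genes gave 589 genes called lower, from fewer genes tested. Same-numbered libraries correlated in their deviations at -0.063, 0.325 and 0.175, and differently numbered ones at -0.35 to 0.21. The main fit did not use the pairing by number. With the replicate block, 27 members of the lower set were called higher and 54 lower (11.4% and 22.9%), against 6.88% and 6.92% of all tested genes. The named genes kept their direction in each alternative run, except GSVIVT01035059001, which ranged from -0.17 without VaWRKY12 replicate 3 to 0.58 without EV replicate 1 when 1 library was left out. Of the named genes called with all 6 libraries, GSVIVT01032007001, GSVIVT01035145001 and GSVIVT01001299001 missed the threshold in limma-voom (adjusted p = 0.0599, 0.271 and 0.0524), and GSVIVT01001299001 also with library totals alone (edgeR adjusted p = 0.0512). Depth limits the low members, where 3 reads stand for 0.200 to 0.341 CPM.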
